A study of Rattus norvegicus with 7 samples.

Results

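The genes that copy DNA were followed in the synovium, the soft tissue lining the joint, of rats whose knees had been injected with MIA and of untreated rats. The genes had been listed by symbol for their known roles in origin licensing, DNA synthesis and nucleotide supply. Of 38 listed symbols, 37 were found by gene name among the 20660 genes of the deposited table, each in 1 place, and E2f1 was not found and was not analysed here. The study sequenced RNA from male SPF rats of the SD strain aged 3 months, with 1.5 µg going into the single library of each rat. The 4 MIA rats, numbered 1 to 4, received 0.1 mL of MIA at 10 mg per kg into the joint space of the right knee, and the 3 control rats, numbered 2 to 4, received no treatment. Tissue was collected 4 weeks later. Pentobarbital was injected beforehand, and whether the control rats also received it is not stated. The labels do not spell out MIA, an abbreviation used in knee osteoarthritis models for monosodium iodoacetate, which blocks glycolysis and kills cartilage cells. They record no sham injection, so the agent and the injection itself cannot be told apart, and no genetic difference between the groups.

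Before a cell divides, the origin recognition complex, with Cdc6 and Cdt1, loads the ring-shaped MCM helicase onto origins of replication, a step called licensing. Kinases and loading factors then join Cdc45 and the GINS complex to the MCM ring, which starts to unwind DNA; DNA polymerase alpha with its primase lays down primers, and polymerases delta and epsilon extend them on the sliding clamp PCNA. Ribonucleotide reductase, thymidylate synthase and thymidine kinase make the building blocks. Most of these genes are transcribed as cells enter S phase, under the control of E2F transcription factors, and are little expressed in resting tissue.

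Total counts per library lay between 13870822 and 16261089. Levels are given as CPM, counts per 1000000 counts of a library size scaled by TMM, a method that assumes most genes do not differ. The scaling factors were 1.06 to 1.23 in MIA libraries and 0.801 to 0.902 in control libraries. The lining fibroblast markers of synovium were detected in all libraries, with summed levels of 368 to 5438 CPM in MIA libraries and 1941 to 4784 CPM in control libraries. The summed level of 20 muscle genes was 823 to 44499 CPM in MIA libraries, with the lowest value in MIA 2, against 178302 to 210136 CPM in control libraries. The level in MIA was below that in control in every library for 20 of these 20 genes, and 6 of the 20 passed the test. The macrophage list summed to 759.9 to 1804 CPM in MIA libraries, against 429.5 to 566 CPM in control libraries, and 10 of its 11 tested genes were higher. The proliferation markers Mki67 and Top2a were both higher in MIA. Mki67 had 70.4, 28.6, 24.0 and 28.3 CPM in MIA 1 to 4, against 2.31, 1.67 and 0.655 CPM in control 2 to 4 (log2 change 4.59 ± 0.57 SE, adjusted p = 0.00139). Top2a had 66.5, 17.3, 28.3 and 25.8 CPM in MIA 1 to 4, against 1.262, 1.06 and 0.164 CPM in control 2 to 4 (log2 change 5.35 ± 0.71 SE, adjusted p = 0.00156).

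Replication genes were mostly higher in MIA synovium. By edgeR's quasi-likelihood test with Benjamini-Hochberg adjustment over 14054 genes, 22 of the 37 (59.5%) were higher in MIA at an adjusted p under 0.05, beside 21.3% of all genes tested. The 2 genes that were lower, Gins2 and Pola2, made up 5.41% of the 37, beside 19.6% of all genes, and 13 were not called. In either direction 40.9% of all genes were called. The median log2 change was 0.91 over the 37 genes and 0.07 over all genes. Every MIA library lay above every control library for 24 of the 37, beside 24.8% of all genes, and below for 2, beside 24.4% of all genes. In whole tissue, more cells of a dividing type and more of these transcripts per cell cannot be told apart.

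The counts depend on what is held constant. When libraries were scaled to stromal genes, the median of all genes moved to -0.91 and that of the 37 replication genes to -0.05. This scaling lowers all changes nearly alike, so it could not move the distance between both medians much. That distance was 0.85, beside 0.84 with TMM, and is no separate result. With stromal scaling 9 of the 37 (24.3%) were higher and 4 (10.8%) lower, beside 5.29% higher and 46.7% lower over all genes. With the mean log2 level of the muscle list as a covariate, 13 (35.1%) were higher and 1 lower, beside 10.1% higher over all genes, and with that of the macrophage list 0 were called in either direction and 10 of all 14054 genes remained called. The levels of both lists did not overlap between the groups, so their part in the result cannot be told apart from that of MIA. All 37 genes passed the filter on low counts, although 8 of them, Orc1, Cdc6, Mcm10, Gins1, Rrm2, Chaf1b, E2f8 and Ccne1, had under 10 counts in at least 1 control library and passed through their MIA libraries. All of these 8 except E2f8 were called higher, so the share called higher includes genes that entered the test through high MIA values.

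**Figure D1:**
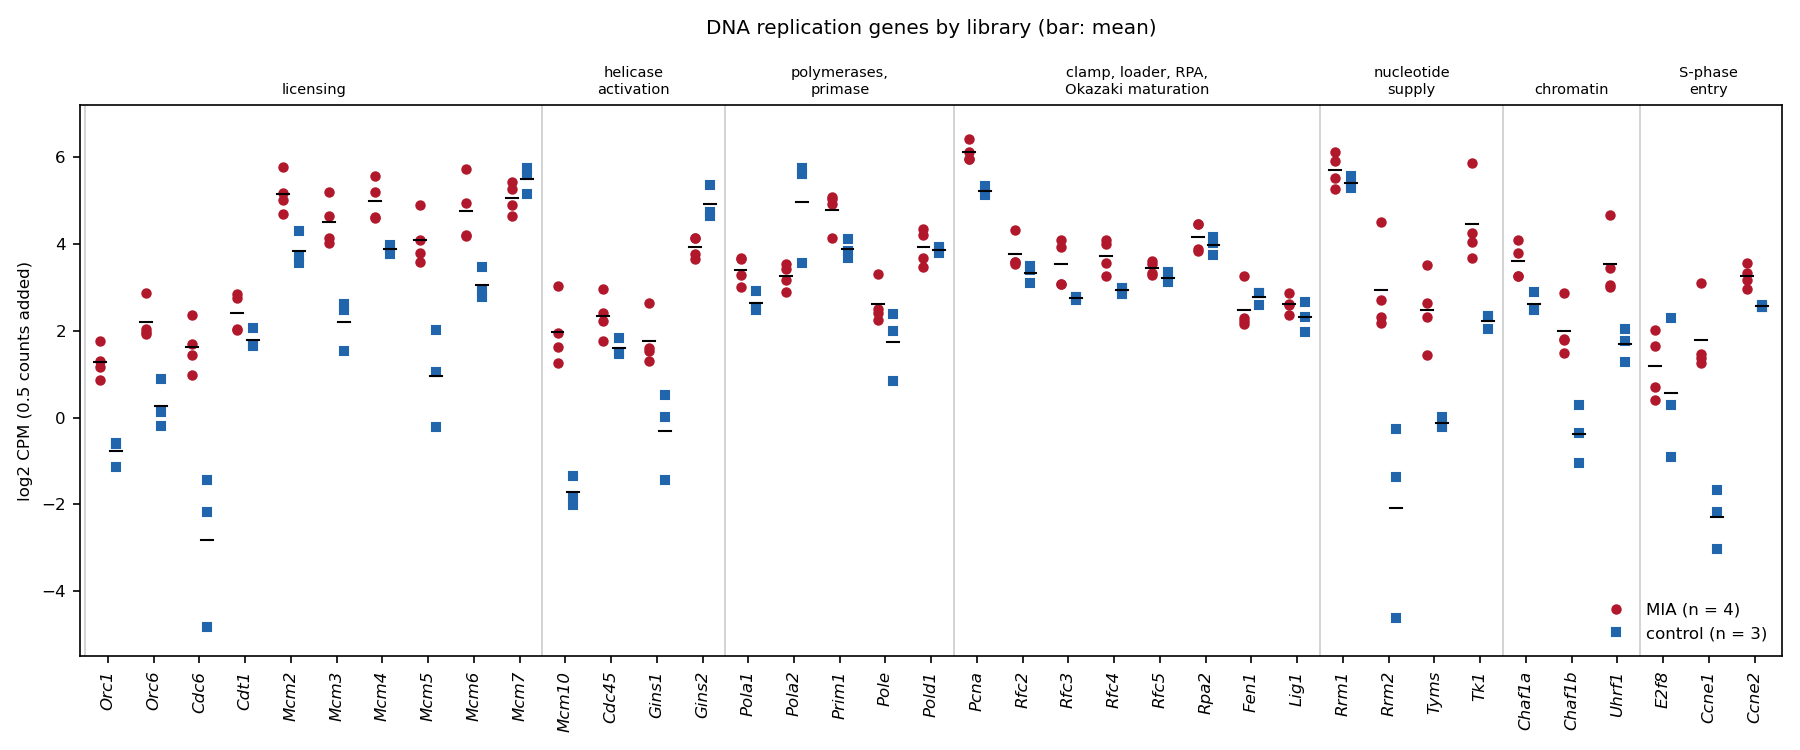
Level of each of the 37 replication genes in each library, as log2 CPM with 0.5 counts added, grouped by role. Red circles are the 4 MIA libraries, blue squares the 3 control libraries and black bars group means. All red circles lie above all blue squares for 24 genes and below them for Gins2 and Pola2. For some of these, such as Prim1, Rfc2 and Pola2, the groups nearly touch.

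Most of the listed licensing genes were higher in MIA, with 8 of 10 (80%) called higher, beside 21.3% of all genes. None was lower, beside 19.6% of all genes, and the median log2 change was 1.89. Of the 8 other pathway genes of this role, 3 (37.5%) were higher and 0 lower. Of the loading factors, Orc1, the largest subunit of the origin recognition complex, had 3.35, 1.79, 2.22 and 2.43 CPM in MIA 1 to 4, against 0.631, 0.616 and 0.409 CPM in control 2 to 4 (log2 change 2.13 ± 0.42 SE, adjusted p = 0.0058). Orc6, the smallest subunit, had 7.31, 3.77, 4.12 and 3.91 CPM in MIA 1 to 4, against 0.841, 1.06 and 1.80 CPM in control 2 to 4 (log2 change 1.95 ± 0.43 SE, adjusted p = 0.0089). Both were above control in every MIA library, with MIA 1 highest. With stromal scaling Orc1 was at 1.22 (adjusted p = 0.0804) and Orc6 at 0.93 (adjusted p = 0.191), and neither was called. Cdc6, the ATPase that works with the complex to load the helicase, had 5.15, 3.19, 1.95 and 2.69 CPM in MIA 1 to 4, against 0, 0.176 and 0.328 CPM in control 2 to 4 (log2 change 4.26 ± 0.80 SE, adjusted p = 0.00482). Its counts were 86, 50, 36 and 51 in the MIA libraries and 0, 2 and 4 in the control libraries, so the 19.1-fold estimate rests on very few control reads. Its log2 change was 3.63 without control 2 and 5.19 without control 4. Cdt1, which brings the MCM ring to the origin, had 6.77, 4.02, 4.12 and 7.13 CPM in MIA 1 to 4, against 4.14, 3.17 and 3.11 CPM in control 2 to 4 (log2 change 0.66 ± 0.33 SE, adjusted p = 0.14). MIA 2 and MIA 3 lay just below control 2, and the change in Cdt1 was not called.

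The MCM helicase is a ring of 6 different proteins, Mcm2 to Mcm7, used in equal numbers. Of its 6 genes, 5 (83.3%) were higher in MIA, beside 21.3% of all genes, while Mcm7 was not called. Mcm5 had 29.9, 11.9, 13.8 and 17.05 CPM in MIA 1 to 4, against 4.0, 2.02 and 0.819 CPM in control 2 to 4 (log2 change 2.98 ± 0.55 SE, adjusted p = 0.00472). Mcm3 had 36.9, 16.1, 17.7 and 25.02 CPM in MIA 1 to 4, against 6.10, 5.55 and 2.87 CPM in control 2 to 4 (log2 change 2.30 ± 0.39 SE, adjusted p = 0.00332). Mcm6 had 53.2, 18.6, 18.2 and 30.6 CPM in MIA 1 to 4, against 11.1, 7.48 and 6.88 CPM in control 2 to 4 (log2 change 1.82 ± 0.42 SE, adjusted p = 0.0108). In these 3 genes all MIA libraries were above all control libraries and MIA 1 was the highest, and Mcm5 was at 3.67 on the log2 scale without control 2. Mcm2 had 54.7, 25.98, 32.3 and 36.1 CPM in MIA 1 to 4, against 19.7, 11.7 and 12.9 CPM in control 2 to 4 (log2 change 1.33 ± 0.30 SE, adjusted p = 0.00969). Mcm4 had 47.2, 24.7, 24.3 and 36.6 CPM in MIA 1 to 4, against 15.4, 15.8 and 13.5 CPM in control 2 to 4 (log2 change 1.15 ± 0.27 SE, adjusted p = 0.0104). These were smaller differences, and again no library of one group reached the other group. Without control 4, Mcm4 (adjusted p = 0.0518) and Mcm6 (adjusted p = 0.0535) fell short of the threshold. With stromal scaling Mcm2 was at 0.43 (adjusted p = 0.322), Mcm4 at 0.17 (adjusted p = 0.69) and Mcm6 at 0.89 (adjusted p = 0.0938), none of them called, while Mcm3 and Mcm5 remained called. Mcm7 (ENSRNOG00000001349) had 43.5, 24.9, 29.95 and 38.8 CPM in MIA 1 to 4, against 48.01, 35.5 and 53.7 CPM in control 2 to 4 (log2 change -0.42 ± 0.23 SE, adjusted p = 0.184). The Mcm7 groups overlapped, and its change was 0.02 when libraries were scaled to their totals and -1.39 (adjusted p = 0.00749) when they were scaled to stromal genes.

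Because the 6 MCM proteins enter the ring in equal numbers, their transcript levels were also set side by side within each library on the length-corrected FPKM scale. In this description, chosen after the values were seen and not tested, Mcm7 made up 19.7%, 24.4%, 26.3% and 25.2% of the summed FPKM of the 6 genes in MIA 1 to 4, against 52.1%, 51.5% and 65.1% in control 2 to 4. The share of Mcm5, the least abundant, was 10.7%, 9.20%, 9.49% and 8.68% in MIA 1 to 4, against 3.40%, 2.31% and 0.779% in control 2 to 4. The highest FPKM among the 6 genes was 1.93, 2.66, 2.77 and 2.90 times the lowest in MIA 1 to 4, against 15.3, 22.3 and 83.5 times in control 2 to 4. MIA libraries thus held the 6 transcripts at similar levels, and control libraries held mostly Mcm7. Mcm7 itself was at 18.5, 11.1, 14.8 and 18.2 FPKM in MIA 1 to 4, against 17.4, 11.7 and 17.3 FPKM in control 2 to 4. The gene overlaps the annotated microRNAs Mir25, Mir93 and Mir106b, and which transcripts of the locus the counted reads came from was not tested.

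**Figure D2:**
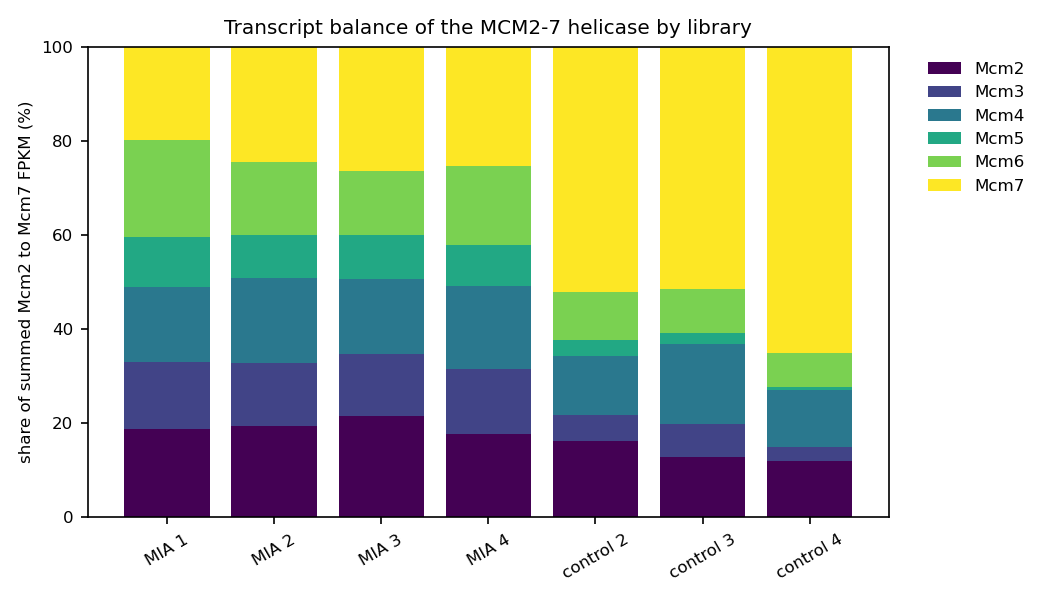
Share of each of Mcm2 to Mcm7 in their summed FPKM, in percent, with 1 stacked bar per library. Mcm7, the top segment, takes 19.7% to 26.3% of the bar in the MIA libraries and 51.5% to 65.1% in the control libraries.

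The promoters of these genes were searched for E2F motifs, since the E2F factors are the textbook regulators of the family. Windows of 300 bases, from 250 before to 50 after the start of the gene, were available from RefSeq (build GRCr8) for 31 of the 37 genes; Orc1, Cdc6, Mcm4, Rrm2, E2f8 and Ccne2 had none. Any of the letters TTTCCCGC, TTTGGCGC, TTTGCCGC or TTTCGCGC, on either strand, occurred in 14 of these 31 windows (45.2%) and in 651 of the 27457 windows of all genes (2.37%). The shorter motif CCAAT, also on either strand, occurred in 61.3% of the 31 windows and 39.6% of all windows. A match is a run of letters and not a measured binding site. Matches can overlap, since 4 letters of the motif can serve both strands. The following stretches show 1 run of matching letters each, in capitals, for 4 MCM genes and for Gins1, Tyms and Uhrf1, and are printed because Mcm7, which was not called, carries a match just as its called partners do.
Mcm2: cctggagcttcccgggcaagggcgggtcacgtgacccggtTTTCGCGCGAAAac
Mcm5: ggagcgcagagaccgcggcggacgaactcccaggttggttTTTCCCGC
Mcm6: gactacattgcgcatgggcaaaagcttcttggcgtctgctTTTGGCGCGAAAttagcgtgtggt
Mcm7: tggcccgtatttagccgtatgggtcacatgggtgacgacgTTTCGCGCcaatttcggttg
Gins1: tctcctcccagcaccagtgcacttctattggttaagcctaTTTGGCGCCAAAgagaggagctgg
Tyms: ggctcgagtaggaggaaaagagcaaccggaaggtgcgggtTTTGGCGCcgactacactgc
Uhrf1: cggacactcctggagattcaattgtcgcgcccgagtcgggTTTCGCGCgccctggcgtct

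Each stretch is written 5′ to 3′ in the direction of its gene. On build GRCr8, which is not the build Rnor_6.0 named for the counts, they lie at chr4:122918095-122918148 (minus strand), chr19:13488765-13488812 (plus), chr13:42404468-42404531 (minus), chr12:22163211-22163270 (minus), chr3:160184855-160184918 (plus), chr9:120776101-120776160 (minus) and chr9:1223047-1223106 (plus). The capitals begin 14 bases before the annotated start of Mcm2, 8 before that of Mcm5, 139 before that of Mcm6 and 52 before that of Mcm7. In Mcm2, Mcm6 and Gins1 they hold 12 letters, in which 2 matches on opposite strands overlap, and in the other 4 genes they hold 1 match of 8 letters. The windows of Mcm5, Mcm7 and Uhrf1 hold further matches outside the printed stretch. Of the 14 genes with a match, 8 were higher, 0 lower and 6 not called, with a median log2 change of 1.11. The 6 that were not called were Cdt1, Mcm7, Pole, Rfc3, Rpa2 and Lig1. Of the 17 with a window and no match, 9 were higher, 2 lower and 6 not called, with a median of 0.84. Over all genes tested, 21.3% were higher and 19.6% lower. The share called higher was thus similar with and without a match, and above that of all genes in both sets. Gins2 and Pola2, the 2 genes that fell, were both without a match. No test was made of the difference between these sets.

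The listed helicase activation genes went in both directions, with 2 of 4 (50%) higher and 1 (25%) lower, beside 21.3% and 19.6% of all genes. Mcm10, which helps the loaded helicase to start unwinding, had 8.14, 2.36, 3.85 and 3.06 CPM in MIA 1 to 4, against 0.210, 0.352 and 0.246 CPM in control 2 to 4 (log2 change 3.99 ± 0.61 SE, adjusted p = 0.00235). Gins1, a GINS subunit, had 6.17, 2.43, 2.87 and 3.01 CPM in MIA 1 to 4, against 1.40, 0.968 and 0.328 CPM in control 2 to 4 (log2 change 1.99 ± 0.57 SE, adjusted p = 0.0245). In both genes every MIA library was above every control library, and Gins1 was no longer called without control 3 (adjusted p = 0.0783), control 4 (0.0785) or MIA 1 (0.0526), nor with stromal scaling (0.125) or the muscle covariate (0.0804). Cdc45, the factor that joins GINS on the helicase, had 7.78, 3.38, 5.25 and 4.64 CPM in MIA 1 to 4, against 2.73, 2.82 and 3.52 CPM in control 2 to 4 (log2 change 0.80 ± 0.35 SE, adjusted p = 0.1). MIA 2 lay below control 4, and Cdc45 was not called. Gins2 (ENSRNOG00000017575), a partner of Gins1 in the same complex, fell. It had 12.6, 17.7, 13.6 and 17.6 CPM in MIA 1 to 4, against 41.00, 25.2 and 26.9 CPM in control 2 to 4 (log2 change -1.01 ± 0.23 SE, adjusted p = 0.00952), and no MIA library reached the lowest control library. Gins2 remained called lower in each of the 7 fits that left out 1 library, but not when libraries were scaled to their totals (log2 change -0.59, adjusted p = 0.0921). On the FPKM scale, the level of Gins2 was 0.521, 1.52, 1.02 and 1.29 times the mean of the other GINS genes in MIA 1 to 4, against 4.87, 4.71 and 5.44 times in control 2 to 4. Gins2 overlaps the protein-coding gene Gse1 in the annotation, and the counting of strands is not given in the sources used here.

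Of the listed polymerase and primase genes, 2 of 5 (40%) were higher, beside 21.3% of all genes. Of the same 5, 1 (20%) was lower, beside 19.6%, and the median log2 change was 0.77. Of the 9 other pathway genes of this role, 2 (22.2%) were higher and 1 (11.1%) lower. Pola1, the catalytic subunit of polymerase alpha, had 12.5, 9.70, 12.8 and 8.08 CPM in MIA 1 to 4, against 5.54, 5.81 and 7.53 CPM in control 2 to 4 (log2 change 0.77 ± 0.25 SE, adjusted p = 0.039). Prim1, the catalytic subunit of its primase, had 32.8, 34.1, 17.7 and 30.1 CPM in MIA 1 to 4, against 17.5, 14.2 and 12.8 CPM in control 2 to 4 (log2 change 0.95 ± 0.26 SE, adjusted p = 0.019). All MIA libraries were above all control libraries for both, by a narrow margin. Pola1 was called without MIA 2 or MIA 4 but not without any other single library (adjusted p = 0.0615 to 0.129), nor with the replicate block (adjusted p = 0.132). Prim1 was not called without control 3 (adjusted p = 0.0725) or control 4 (0.0835). Pole, the catalytic subunit of the leading-strand polymerase epsilon, had 9.94, 4.72, 5.63 and 5.28 CPM in MIA 1 to 4, against 3.93, 1.76 and 5.16 CPM in control 2 to 4 (log2 change 0.82 ± 0.44 SE, adjusted p = 0.163). Pold1, that of polymerase delta, had 20.2, 11.04, 12.9 and 18.5 CPM in MIA 1 to 4, against 15.1, 13.9 and 14.7 CPM in control 2 to 4 (log2 change 0.10 ± 0.24 SE, adjusted p = 0.753). The groups overlapped for Pole and Pold1, neither of which was called.

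Pola2 (ENSRNOG00000020906), the accessory subunit of polymerase alpha, fell while its partners Pola1 and Prim1 rose, although with stromal scaling the partners were at -0.19 and -0.052. Pola2 had 8.98, 7.47, 11.5 and 10.8 CPM in MIA 1 to 4, against 11.7, 49.1 and 53.6 CPM in control 2 to 4 (log2 change -1.97 ± 0.46 SE, adjusted p = 0.0107). By CPM all MIA libraries were below all control libraries, although control 2 stood far from the other controls and just above MIA 3. By FPKM the groups overlapped, since MIA 3 and MIA 4 lay above control 2. Without control 2 the log2 change was -2.41 (adjusted p = 0.00221), and without control 4 it was -1.65 (adjusted p = 0.0499). With the muscle level as a covariate it was -1.55 and not called (adjusted p = 0.146). In the limma fit on log2(FPKM + 1) it was -1.12 (adjusted p = 0.0607). In that on log2(FPKM + 0.1) it was -1.26 (adjusted p = 0.0613), and Pola2 was called in neither. Whether the spread among the control rats followed a property of the tissue was not tested.

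Of the genes of the clamp, its loader, the single-strand binding protein and Okazaki maturation, 2 of 8 (25.0%) were called higher, beside 21.3% of all genes, and 0 lower, with a median log2 change of 0.37. Pcna, the sliding clamp, was the most abundant of the 37 genes by CPM in each MIA library and rose. It had 85.7, 70.02, 62.01 and 61.9 CPM in MIA 1 to 4, against 40.4, 36.01 and 35.05 CPM in control 2 to 4 (log2 change 0.91 ± 0.17 SE, adjusted p = 0.00454), a 1.88-fold difference that was -0.057 on the log2 scale, and not called, when libraries were scaled to stromal genes, and that was not called with the muscle covariate (adjusted p = 0.0516). Of the clamp loader genes, Rfc4 was higher (log2 change 0.84 ± 0.25 SE, adjusted p = 0.0267), with 9.66 to 17.01 CPM in MIA libraries and 7.15 to 7.92 CPM in control libraries. That call held without MIA 2 or MIA 4 and was lost without any other single library (adjusted p = 0.0552 to 0.0839). Rfc3, with 8.43 to 17.1 CPM in MIA libraries and 6.47 to 6.80 CPM in control libraries, missed the threshold (log2 change 0.88 ± 0.31 SE, adjusted p = 0.0509) and passed it without MIA 2 (adjusted p = 0.0267) or MIA 4 (0.0333). Rfc2 (log2 change 0.46 ± 0.26 SE, adjusted p = 0.178) was also above control in every MIA library, whereas the groups overlapped for Rfc5 (log2 change 0.22 ± 0.19 SE, adjusted p = 0.38). Rpa2, a subunit of the protein that coats single-stranded DNA, had 22.2, 14.3, 14.7 and 22.01 CPM in MIA 1 to 4, against 17.9, 13.4 and 16.3 CPM in control 2 to 4 (log2 change 0.20 ± 0.23 SE, adjusted p = 0.504). Fen1, the nuclease that trims Okazaki fragments, had a log2 change of -0.22 ± 0.33 (adjusted p = 0.615), and Lig1, the ligase that joins them, one of 0.28 ± 0.27 (adjusted p = 0.445). Both overlapped between the groups.

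Of the listed nucleotide supply genes, 3 of 4 (75%) were higher, beside 21.3% of all genes. Among the other pathway genes of this role, 2 of 11 (18.2%) were higher and 0 lower, with a median log2 change of 0.35. Rrm2 (ENSRNOG00000054286), the small subunit of ribonucleotide reductase and the one that is made in dividing cells, had 22.8, 4.47, 4.98 and 6.54 CPM in MIA 1 to 4, against 0.350, 0.792 and 0 CPM in control 2 to 4 (log2 change 4.66 ± 1.0 SE, adjusted p = 0.00804). The counts behind these values were 381, 70, 92 and 124 in MIA 1 to 4 and 5, 9 and 0 in control 2 to 4. MIA 1 alone was several-fold above the other MIA libraries, and even the lowest MIA library was above every control library. The log2 change, with TMM the largest of the 37 genes, was 3.81 without MIA 1 and 5.65 without control 3, and without MIA 1 that of Cdc6 was larger (3.94). Rrm1, the large subunit, had 69.8, 38.6, 59.9 and 45.8 CPM in MIA 1 to 4, against 41.8, 39.2 and 47.4 CPM in control 2 to 4 (log2 change 0.32 ± 0.22 SE, adjusted p = 0.27). The Rrm1 groups overlapped. On the FPKM scale Rrm2 was at 107%, 38.0%, 27.3% and 46.9% of Rrm1 in MIA 1 to 4, against 2.75%, 6.64% and 0% in control 2 to 4. Tyms, thymidylate synthase, had 11.4, 2.68, 6.23 and 4.96 CPM in MIA 1 to 4, against 0.841, 0.968 and 0.819 CPM in control 2 to 4 (log2 change 2.84 ± 0.54 SE, adjusted p = 0.00501). Tk1, the thymidine kinase of dividing cells, had 58.5, 19.02, 16.6 and 12.8 CPM in MIA 1 to 4, against 4.98, 4.05 and 5.0 CPM in control 2 to 4 (log2 change 2.51 ± 0.56 SE, adjusted p = 0.00901). For Tyms and Tk1 the control libraries were close together and every MIA library was well above them, with MIA 1 the highest. Without MIA 1 the log2 change of Tk1 was 1.79 (adjusted p = 0.00477). Rrm2 and Tyms remained called under each alternative except the macrophage covariate, and Tk1 also missed the threshold with the muscle covariate (adjusted p = 0.0509).

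Of the listed genes that rebuild chromatin behind the fork, 3 of 3 were higher, beside 21.3% of all genes. Among the other pathway genes of this role, 3 of 5 tested (60%) were higher and 1 (20%) lower. Chaf1b, a subunit of the histone chaperone CAF-1, had 7.25, 3.45, 3.47 and 2.80 CPM in MIA 1 to 4, against 1.19, 0.440 and 0.737 CPM in control 2 to 4 (log2 change 2.40 ± 0.52 SE, adjusted p = 0.00832). Chaf1a, the largest subunit, averaged 12.5 ± 3.60 CPM in MIA libraries and 6.19 ± 1.02 CPM in control libraries (SD, n = 4 and n = 3; log2 change 1.01 ± 0.28 SE, adjusted p = 0.0205). Uhrf1, which guides the copying of DNA methylation, averaged 13.1 ± 8.22 CPM in MIA libraries and 3.26 ± 0.837 CPM in control libraries (SD, n = 4 and n = 3; log2 change 2.01 ± 0.48 SE, adjusted p = 0.0119). None of the 3 overlapped between the groups. Chaf1a was not called without control 3 (adjusted p = 0.0815) or control 4 (0.0846), and it was at 0.061 with stromal scaling (adjusted p = 0.897). With that scaling Uhrf1 was at 0.98 and not called (adjusted p = 0.147). With the muscle covariate Chaf1a (adjusted p = 0.0632) and Chaf1b (0.0508) were not called.

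Of the S-phase entry genes, the cyclins of CDK2 rose and the E2F factor was not called. Ccne1, cyclin E1, had 8.50, 2.36, 2.55 and 2.74 CPM in MIA 1 to 4, against 0.280, 0.176 and 0.0819 CPM in control 2 to 4 (log2 change 4.40 ± 0.74 SE, adjusted p = 0.00329). It had 142, 37, 47 and 52 counts in MIA 1 to 4, against only 4, 2 and 1 counts in control 2 to 4. Without MIA 1 its log2 change was 3.75. Ccne2, cyclin E2, had 11.8, 8.94, 7.80 and 10.1 CPM in MIA 1 to 4, against 6.03, 5.81 and 5.81 CPM in control 2 to 4 (log2 change 0.71 ± 0.23 SE, adjusted p = 0.0351). Ccne2 had the higher CPM of both in every library, but on the length-corrected FPKM scale Ccne1 was above it in MIA 1 (4.61 against 4.13 FPKM). The groups of Ccne2 did not overlap by CPM. Its call was kept only without MIA 2 or MIA 3 and was lost without any other single library (adjusted p = 0.0685 to 0.111). The change of Ccne2 was -0.28 with stromal scaling. E2f8, an atypical E2F that represses S-phase genes, had 4.01, 1.60, 1.30 and 3.11 CPM in MIA 1 to 4, against 1.19, 4.84 and 0.491 CPM in control 2 to 4 (log2 change 0.21 ± 0.75 SE, adjusted p = 0.838). Control 3 was higher than any MIA library for E2f8, and the sign of its change turned without control 2 or control 4 or MIA 1.

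**Figure D3:**
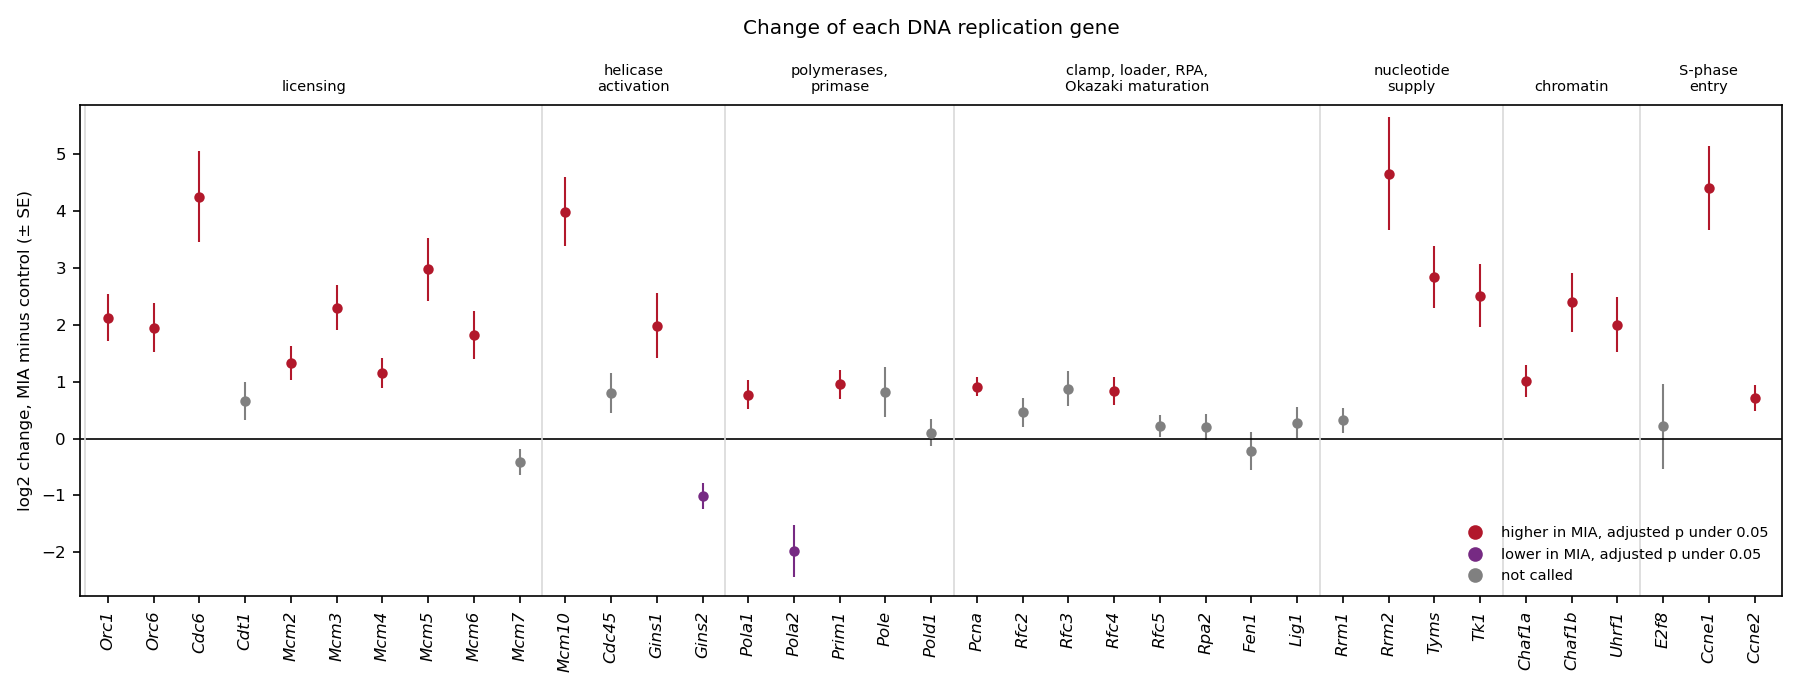
Log2 change, MIA minus control, of each of the 37 replication genes with its SE as bars, grouped by role. The changes run from -1.97 for Pola2 to 4.66 for Rrm2, and 22 genes are marked as higher, 2 as lower and 13 as not called.

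The MIA rats differed among themselves. MIA 1 was the highest of the 4 MIA libraries for 30 of the 37 genes and for 19 of the 22 called higher. MIA 2 was the lowest for 22 of the 37 and for 12 of the 22. Over the 22, the level in MIA 1 was a median of 1.93 times the mean of MIA 2 to 4, and ranged up to 4.28 for Rrm2, with a lowest value of 1.20. The summed level of all 37 genes was 832, 465, 496 and 551 CPM in MIA 1 to 4, against 382, 356 and 387 CPM in control 2 to 4. Summed proliferation markers followed the same order at the top, with 166, 53.7, 61.9 and 64.4 CPM in MIA 1 to 4, against 3.93, 3.08 and 1.31 CPM in control 2 to 4. The macrophage list did not, since it was highest in MIA 2, although its genes Mrc1 and Aif1 were highest in MIA 1. The neutrophil list was highest in MIA 3, at 582 CPM there and 27.4 to 52.8 CPM in the remaining MIA libraries. The list of blood genes was highest in MIA 1, with 23977, 20853, 4080 and 2493 CPM in MIA 1 to 4. No other marker list besides the proliferation markers was highest in MIA 1. What these orders follow was not tested. Without MIA 1, 18 of the 37 genes were called higher and 2 lower. In that fit 4770 of all 13870 genes tested were called in either direction, and 53.0% of these calls were higher.

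**Figure D4:**
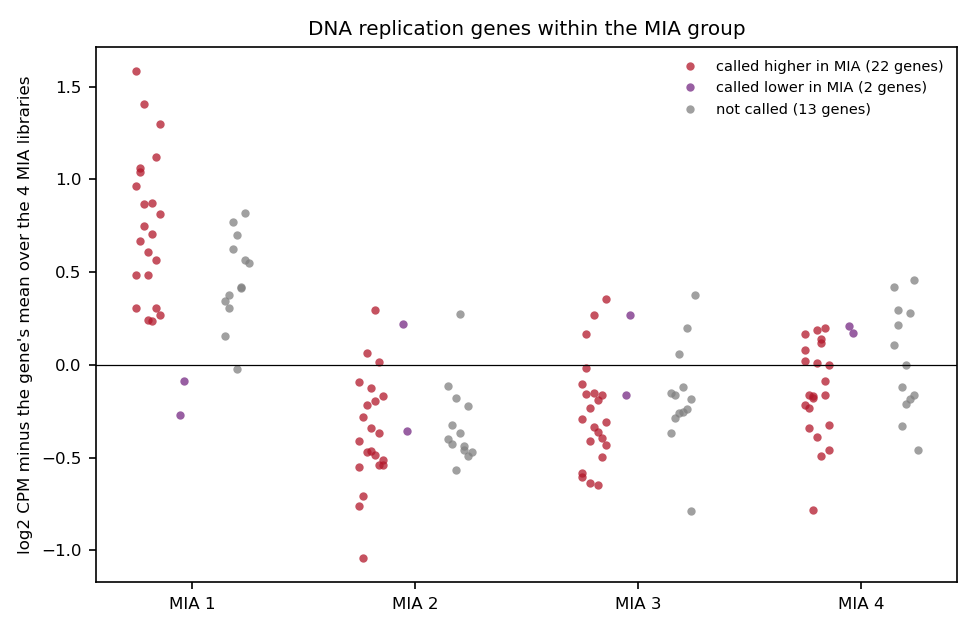
Log2 CPM of each replication gene in each MIA library minus the mean of that gene over the 4 MIA libraries, with 1 point per gene. Points for MIA 1 lie mostly above 0, including all 22 genes called higher, and points for MIA 2 mostly below.

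Other genes of the replication pathway, 67 by list and 66 found, went in both directions. Of 65 tested, 23 (35.4%) were higher, beside 21.3% of all genes, 7 (10.8%) were lower, beside 19.6%, and 35 were not called, with a median log2 change of 0.52, beside 0.07 over all genes. Of the 65, 10 had under 10 counts in at least 1 control library and passed the filter through their MIA libraries; 9 of these 10 were called higher, among them the 5 genes with the largest changes, which follow. Among their helicase activation genes, 8 of 10 were higher and 0 lower. Dbf4, the activator of the origin-firing kinase Cdc7 (log2 change 3.46 ± 0.95 SE, adjusted p = 0.0211), and Ticrr, a helicase loading factor (log2 change 2.75 ± 0.72 SE, adjusted p = 0.0174), had the largest changes. Asf1b, a histone chaperone, had 10.8, 4.47, 4.39 and 2.64 CPM in MIA 1 to 4, against 0.280, 0.0880 and 0 CPM in control 2 to 4 (log2 change 5.34 ± 0.87 SE, adjusted p = 0.00295). Clspn, which encodes the fork protein claspin, had a log2 change of 4.02 ± 0.78 (adjusted p = 0.00548), and Pole2, a subunit of polymerase epsilon, one of 3.51 ± 0.61 (adjusted p = 0.00368). For these 5 genes every MIA library was above every control library, and control counts were at most 9. Without control 3 or control 4, Dbf4 (adjusted p = 0.0678 and 0.0885) and Ticrr (0.0749 and 0.0674) were not called. Leaving out 1 control moved the log2 change of Asf1b to 6.78 (without control 2), Clspn to 5.37 (without control 3), Dbf4 to 4.90 and Ticrr to 3.95 (both without control 2).

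By CPM, none of the 7 pathway genes that fell overlapped between the groups, although by FPKM Rb1, Rbl2 and Asf1a did. The 7 included 3 regulators of the E2F programme. The related pocket protein Rbl1 (log2 change 2.35, adjusted p = 0.00684) and the E2F factor E2f7 (1.88, adjusted p = 0.0498), named after their values were seen, were higher. Rbl2, the pocket protein p130 of resting cells, had 36.3, 38.6, 45.5 and 39.2 CPM in MIA 1 to 4, against 73.2, 66.4 and 77.7 CPM in control 2 to 4 (log2 change -0.86 ± 0.14 SE, adjusted p = 0.00309), Rb1, the retinoblastoma protein, fell by 0.72 on a log2 scale (adjusted p = 0.0102), and Tfdp2, a partner of E2F factors, fell by 0.98 (adjusted p = 0.00654). Rpa1, the large subunit of the complex that holds Rpa2, had 40.7, 29.04, 36.5 and 33.5 CPM in MIA 1 to 4, against 55.4, 59.1 and 70.8 CPM in control 2 to 4 (log2 change -0.82 ± 0.17 SE, adjusted p = 0.00642). Pole4, a small subunit of polymerase epsilon, fell by 0.81 (adjusted p = 0.00624), Rnaseh2a, which removes ribonucleotides, by 0.98 (adjusted p = 0.00629), and Asf1a, the sister gene of Asf1b, by 0.54 (adjusted p = 0.0247). With TMM, Asf1a therefore fell while Asf1b rose. Asf1a was not called without control 3, control 4, MIA 1 or MIA 2 (adjusted p = 0.0536 to 0.0931). Nor was it called with the replicate block (0.0791) or the muscle covariate (0.214). Its log2 change was only -0.087 (adjusted p = 0.689) with library totals and -0.080 (adjusted p = 0.678) in the limma fit on log2(FPKM + 1). Rb1, Tfdp2, Rpa1 and Pole4 were also not called with library totals (adjusted p = 0.0605 to 0.251) or the muscle covariate (0.0816 to 0.125). Rb1 was at -0.27 with library totals. Rbl2 was not called with library totals (adjusted p = 0.0776). None of these 5 was called in either limma fit on FPKM. Rnaseh2a lost its call only with the macrophage covariate. When libraries were scaled to their totals, 1 of the 65 genes was lower and 39 (60.0%) were higher, beside 10.5% and 37.4% of all genes, and when they were scaled to stromal genes 17 (26.2%) were lower and 5 (7.69%) higher, beside 46.7% and 5.29% of all genes.

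**Figure D5:**
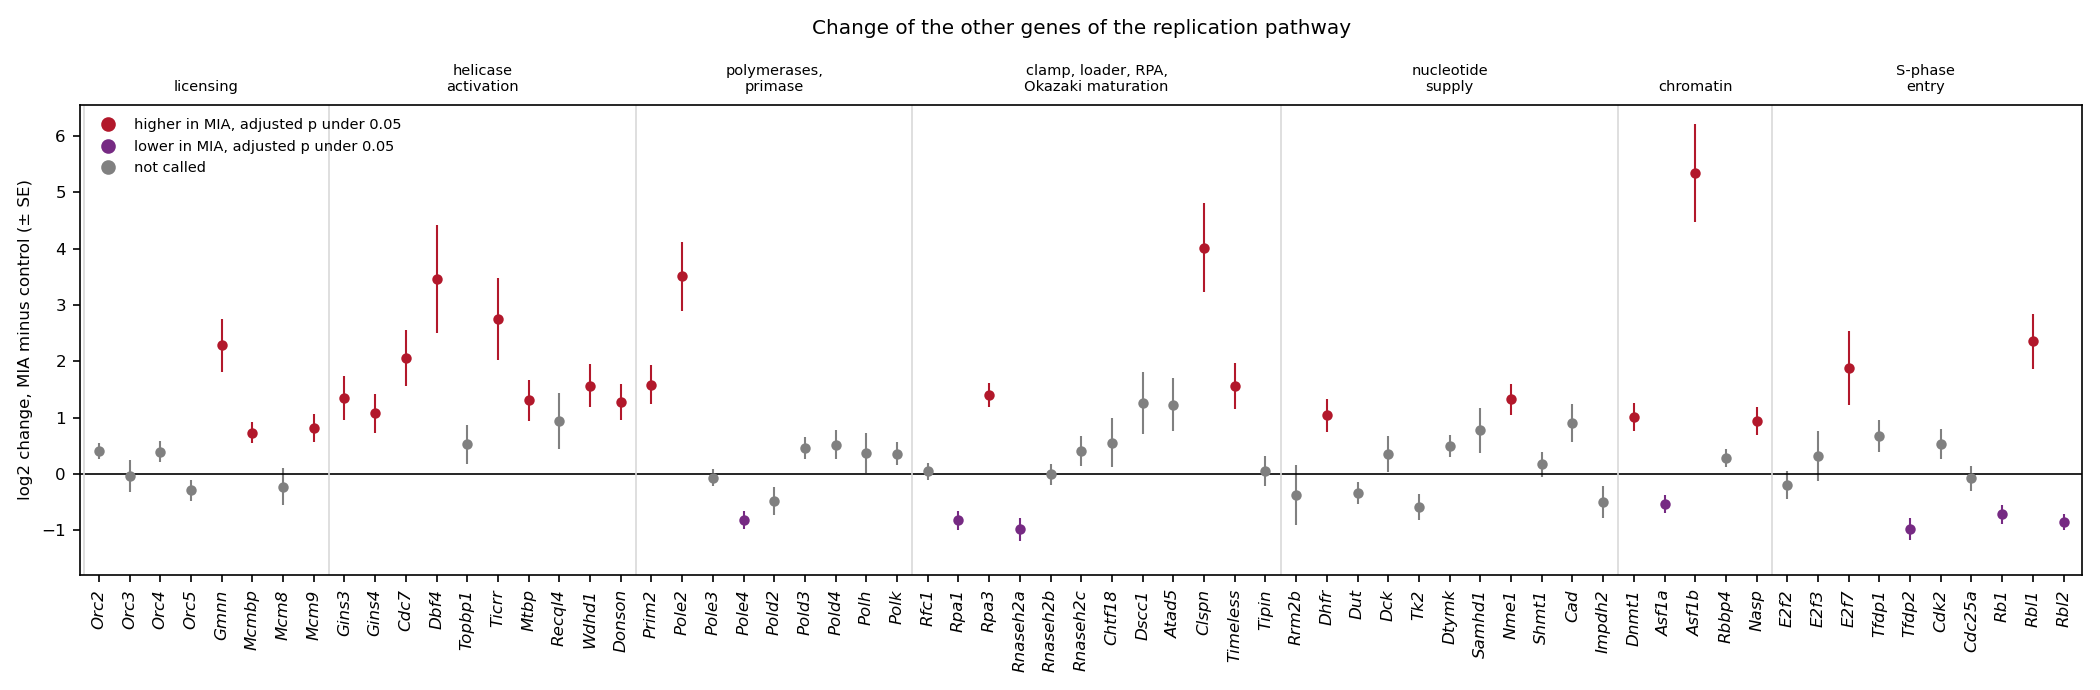
Log2 change, MIA minus control, of the 65 tested genes of the replication pathway outside the 37, with SE as bars, grouped by role. There are 23 marked as higher, up to 5.34 for Asf1b, and 7 marked as lower, down to -0.98 for Rnaseh2a.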

How the data were processed

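The 7 libraries and their groups were taken from the labels. Per the file headers, the deposited table gives a count and an FPKM value for each gene and library. The build Rnor_6.0 and the tools HISAT2, DESeq2 1.26.0 and HTSeq 0.11.2 are listed, without a role, in the submitters' processing notes. Whether counting used the strand is not given in the sources used here. Counts of overlapping genes are therefore uncertain: 12 of the 37 genes overlap another gene in RefSeq's GRCr8 annotation, 6 of them a protein-coding one (Gins2, Fen1, Lig1, Rrm2, Uhrf1 and Ccne2).

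The deposited counts were fitted with edgeR 4.0.16 in R 4.3.3: filterByExpr with the group, which kept 14054 genes, TMM scaling, the quasi-likelihood F test and Benjamini-Hochberg adjustment over all genes tested. A gene was called at an adjusted p under 0.05. Log2 changes are MIA minus control, and their SE was derived from F (the absolute change over its square root). The common biological coefficient of variation was 36.7%. The labels do not say whether rats shared a litter or a batch. The deposited FPKM values of the authors, which rest on library totals, served for comparing genes within a library and for 2 alternatives. The 20 alternatives also used DESeq2 1.42.0 and limma 3.58.1. The script for the tests was tested on simulated data. Tables and figures were made with Python 3.11.15, pandas 2.3.3 and matplotlib 3.10.9.

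The genes and lists were chosen with earlier results of these data known. Values in every library were given for the subunits and enzymes central to licensing, helicase activation, synthesis, nucleotide supply and S-phase entry, and, of the rest, for the gene with the smallest p (Chaf1b) and that with the smallest change (Rpa2). Of the other pathway genes, the 5 largest and 5 most negative changes and every gene called lower were named. Replicate numbers are shared between the groups for 2, 3 and 4; the deviations of same-numbered libraries correlated at 0.223, 0.0898 and 0.0388 over genes, so the numbers were not taken to pair the rats.

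Of the marker lists not described with the results, T and NK cell genes were higher for 5 of 9 tested, neutrophil genes for 4 of 5, B and plasma cell genes for 1 of 5, chondrocyte genes for 5 of 8, erythroid and marrow genes for 1 of 4, and blood and endothelial genes for 0 of 5 each. Stromal genes were higher for 9 and lower for 1 of 16, adipocyte genes were lower for 2 of 10 and lining fibroblast genes for 1 of 5. No list held a gene at 0 in all libraries.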

Additional observations from a re-analysis of the deposited data

Results flagged for a closer look

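In 5 of 49 groups of 4 MIA libraries examined, 1 gene per group, a single library stood apart from the other 3 on the log2 CPM scale by a gap, as a share of the whole range, above Dixon's 95% critical value. Chance alone gives about 1 in 20 such groups. MIA 1 stood apart in 4 of them. Orc6 was at 7.31 CPM there, against 3.77 to 4.12 CPM in MIA 2 to 4 (gap ratio 0.868). Rfc2 was at 20.1 CPM, against 11.6 to 12.1 CPM (0.928). Fen1 was at 9.52 CPM, against 4.43 to 4.91 CPM (0.864), and Ccne1 at 8.50 CPM, against 2.36 to 2.74 CPM (0.885). In the remaining group, Pole4 was at 26.2 CPM in MIA 2, against 35.1 to 36.8 CPM in MIA 1, 3 and 4 (0.863).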

How the results depend on the processing

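With TMM, 22 of the 37 replication genes were higher and 2 lower, 23 other pathway genes were higher and 7 lower, and 5751 genes were called in all. Over 20 alternatives, 603 of 740 values for single replication genes kept their direction and their side of the threshold. With the sign unchanged, 81 lost a call and 28 gained one, and 28 turned sign. Those that turned sign include Pola1, Prim1, Pcna, Rfc4 and Ccne2 with stromal scaling, which also lost their calls. Library totals as scale gave 29 and 1 replication genes, and 39 and 1 other pathway genes, higher and lower; log2(FPKM + 1) gave 30 and 0, with 36 and 1, and log2(FPKM + 0.1) gave 29 and 0, with 38 and 1. Stromal scaling gave 9 and 4, with 5 and 17. Of all calls, 52.1% were higher with TMM, 78.1% with library totals, 75.5% and 76.7% with FPKM and 10.2% with stromal scaling; the median of all genes was 0.51 with library totals and -0.91 with stromal scaling. The muscle covariate gave 13 and 1, with 10 and 2, and 2572 calls in all; the macrophage covariate gave 0 and 0, with 0 and 0, and 10 calls. Leaving out 1 library gave 14 to 23 replication genes higher and 2 lower each time, 9 to 24 other pathway genes higher and 6 to 7 lower, and 3399 to 5724 calls. The lowest counts came without control 4 (14, 9 and 3399), and without control 3 they were 16, 10 and 3628; these fits rest on 2 controls. With the replicate block, 17 replication genes were higher and 2 lower, 16 other pathway genes were higher and 6 lower, and 4555 genes were called; Gins1, Pola1, Rfc4, Chaf1a and Ccne2 lost their calls. MIA 3 correlated more with control 4 (0.172) than with control 3. The counts under DESeq2 (23 and 2), limma-voom (19 and 2), median-of-ratios factors (22 and 2), TMM without muscle, blood and mitochondrial genes (22 and 2), no filter (20 and 2) and a stricter filter (23 and 2) were within 1.5 times those with TMM.

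These log2 changes turned sign. With stromal scaling, which lowers all changes alike, they were -0.29 for Cdt1, -0.16 for Cdc45, -0.19 for Pola1, -0.052 for Prim1, -0.15 for Pole, -0.87 for Pold1, -0.057 for Pcna, -0.49 for Rfc2, -0.025 for Rfc3, -0.095 for Rfc4, -0.75 for Rfc5, -0.77 for Rpa2, -0.75 for Lig1, -0.62 for Rrm1, -0.83 for E2f8 and -0.28 for Ccne2. Mcm7 was at 0.018 and Fen1 at 0.19 with library totals, at 0.011 and 0.12 with log2(FPKM + 1), and at 0.012 and 0.14 with log2(FPKM + 0.1). Pold1 was at -0.076 with the replicate block and Lig1 at -0.0057 with the muscle covariate. Over the fits that left out 1 library, Pold1 ranged between -0.035 and 0.25 and E2f8 between -0.27 and 1.55; without MIA 1 Pold1 was at -0.035 and E2f8 at -0.10, and without control 2 E2f8 was at -0.09. The cause was not tested. Depth limits the fold of Cdc6, Rrm2, Ccne1 and Mcm10, whose control counts were under 10.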

Other observations

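Replication genes were split by their level in control synovium. The 15 genes with a mean under 1 FPKM in control libraries had a median log2 change of 2.13, with 12 higher and 0 lower, and the 22 genes at 1 FPKM or more had a median of 0.69, with 10 higher and 2 lower. The same order held over all genes tested, with a median of 1.01 for the 2514 genes under 1 FPKM and of -0.04 for the other 11540. Of the 2514 genes, 876 were higher and 97 lower, and of the 11540 genes, 2122 were higher and 2656 lower. The 15 replication genes include all 8 that passed the filter through their MIA libraries, of which all except E2f8 were called higher. The grouping uses the control values that also enter the changes, so no test was made.

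Further complexes were set out by their FPKM within a library, chosen after the values were seen and not tested. Rpa1 was at 0.211, 0.220, 0.265 and 0.252 times the mean of the other RPA genes in MIA 1 to 4, against 0.712, 0.925 and 1.07 times in control 2 to 4. Chaf1b was at 0.632, 0.534, 0.533 and 0.300 times Chaf1a in MIA 1 to 4, against 0.240, 0.116 and 0.196 times in control 2 to 4. Pola2 was at 0.379, 0.331, 0.782 and 0.540 times the mean of the other polymerase alpha and primase genes in MIA 1 to 4, against 1.0, 5.15 and 5.95 times in control 2 to 4. In the promoters of the other pathway genes, an E2F motif of the same 4 forms occurred in 23 of 57 windows (40.4%).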
